A study of Mus musculus with 4 samples.

Results

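Interferon response genes and the genes of major histocompatibility complex (MHC) class I presentation form a group of 37 named mouse genes, chosen as a list of symbols that covers the sensors, transcription factors and effectors of the response and the chains and peptide suppliers of class I molecules. All 37 of 37 were found among the 24570 named genes of the series, whose RNA was read on 4 Affymetrix arrays (Mouse Gene 2.1 ST). Limb muscles of Rspo1-null mice (spelled Rpos1-null in the labels' genotype field) and of wild-type mice gave the primary myoblasts, on a C57bl6N/sv129 background. The cells were grown in Ham F10 medium with fetal bovine serum and bFGF, and harvested after 24 h in low horse serum, which starts their differentiation into myocytes. Rspo1 encodes R-spondin 1, a secreted protein that strengthens Wnt signaling, and the Rspo1-null mice carry its loss-of-function allele in all tissues. RNA came from 2 independent cultures for each genotype, called wild-type 1 and 2 and Rspo1-null 1 and 2. The labels do not give the animals' age or sex, and they name wild-type animals only, while the paper counts heterozygous animals among the controls of its muscle histology.

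Type I interferons bind a receptor on the cell surface whose kinases phosphorylate STAT proteins such as STAT2, which joins IRF9 and enters the nucleus in a complex that binds the interferon-stimulated response element (ISRE) in the promoters of antiviral genes. Class I molecules, made of a heavy chain such as H2-K or H2-D and of beta-2-microglobulin, carry peptides cut by the proteasome and pumped into the endoplasmic reticulum by the TAP transporter to the cell surface, where T cells read them. Healthy skeletal muscle fibers are known for low levels of class I molecules, which rise in inflamed muscle.

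Values are log2 expression levels normalized by RMA, and a level of 4.69, which 95% of 1370 genes for olfactory and vomeronasal receptors do not exceed, served as the background level. A gene is called dim where both genotype means lie below it. The 4 array medians lay between 4.62 and 4.70. Rspo1 itself had values of 5.71 and 5.84 in wild-type 1 and 2 and of 5.29 and 5.33 in Rspo1-null 1 and 2, a log2 difference of -0.46 (SE 0.15, limma unadjusted p = 0.0287, adjusted p = 1). Its signal in the Rspo1-null arrays was still above background, so it checks the labels only in part. The position of its probes relative to the deletion was not analysed here. Over all genes, which are not independent replicates, arrays were also more alike across the genotype labels than within them, with Pearson's r of 0.988 for wild-type 2 with Rspo1-null 1 and 0.981 for wild-type 1 with Rspo1-null 2, and of 0.975 within wild-type and 0.979 within Rspo1-null. Xist, the RNA that coats the inactive X chromosome of females, was at 10.39 and 10.38 in wild-type 2 and Rspo1-null 1 and at 4.35 and 4.07 in wild-type 1 and Rspo1-null 2, which held the Y-linked transcripts. Each genotype therefore holds 1 array of each kind, and wild-type 2 and Rspo1-null 1 are called the Xist arrays below and the other two the Y-linked arrays. All 8 muscle markers were above background in every array, whereas 7 of 9 leukocyte markers, 6 of 6 endothelial markers and 4 of 5 fibroblast markers were dim. The pan-leukocyte gene Ptprc did not exceed 2.89, and the leukocyte genes above background were Cd68, at 5.69 to 6.08, and Fcer1g, at 4.86 to 5.21. Col3a1 was the fibroblast marker above background, at 7.61 and 7.82 in the Xist arrays and at 7.16 and 7.09 in the Y-linked arrays. Of the 5 fibroblast markers, 1 had both Xist arrays above both Y-linked arrays, and 1, the dim Dcn, had them below.

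The chains of the class I molecule, Tap1 and Psmb9 were above background in all 4 arrays, whereas Tap2 and most interferon-stimulated genes were not. Of the 37 genes, 23 were dim and 14 were not, beside a dim share of 48.6% among all genes. Of the 37, 10 exceeded the background level in all 4 arrays, beside 45.3% of all genes, while 22 exceeded it in none. The plot of every gene in every array shows both parts of the list.

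**Figure D1:**
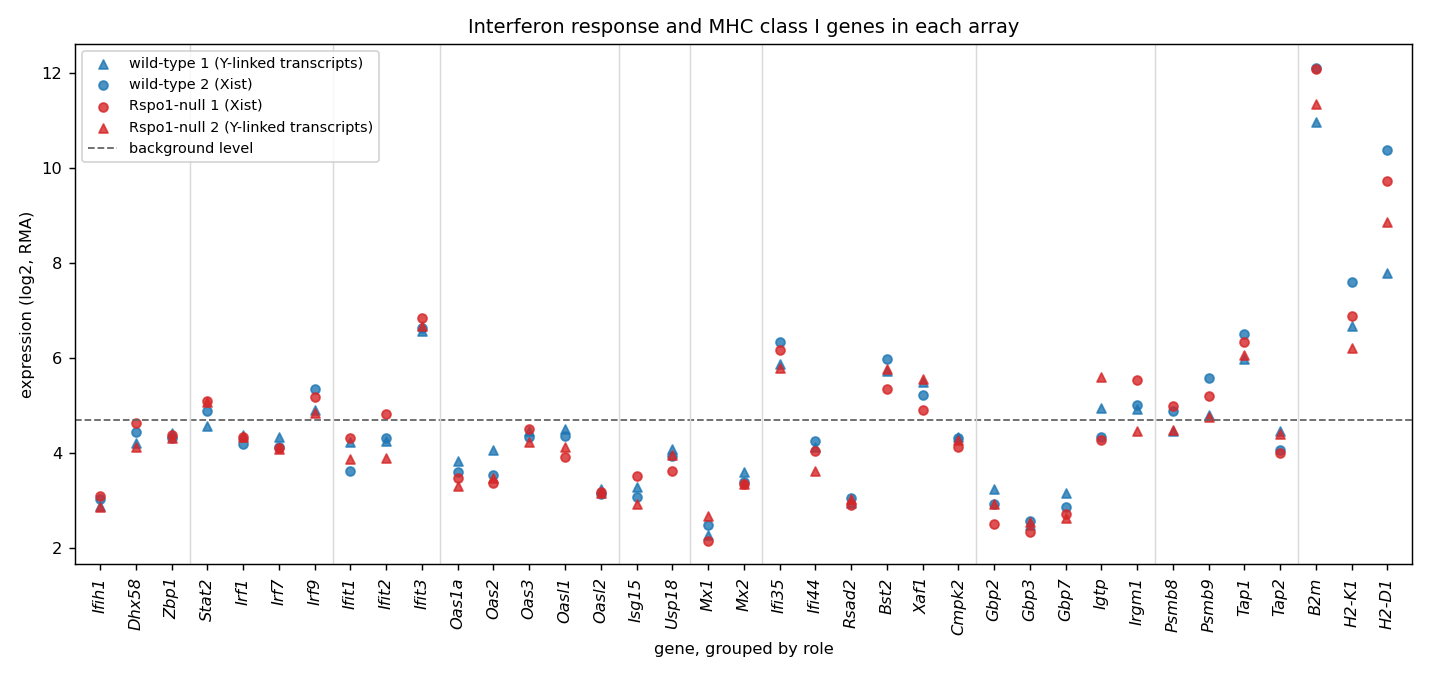
Log2 expression (RMA, vertical axis) of the 37 genes (horizontal axis, grouped by role, with vertical lines between roles) in each of the 4 arrays; color gives the genotype label, circles are the Xist arrays and triangles the Y-linked arrays, and the dashed line is the background level of 4.69. The MHC class I chains B2m, H2-K1 and H2-D1 lie above the line in every array and the sensors, OAS, ISG15 and Mx genes below it in every array.

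Between the genotypes, 0 of the 37 genes passed an adjusted p of 0.05 in limma, where every adjusted p was 1. At an unadjusted p under 0.05, 0 were higher and 0 lower in Rspo1-null, beside 1.19% of all genes higher and 1.95% lower, and the methods' test (one-way analysis of variance on each gene) also gave 0, beside 4.74% of all genes. Over all genes these shares come from 293 higher and 479 lower genes, a split that became 438 higher and 324 lower with each array centered on its median and 348 and 345 with cyclic loess. Of the 37 differences, 14 were above 0 and 23 below, but 19 and 18 with either of these scalings. Their median was -0.046 on the log2 scale, beside -0.025 over all genes, and it turned to 0.0050 with median centering and 0.017 with cyclic loess. The differences ranged from -0.59 for H2-K1 to 0.36 for Stat2. Both Rspo1-null arrays were above both wild-type arrays for 2 genes, Stat2 and Ifit3, beside 12.2% of all genes, and below both for 8, all of them dim, beside 19.0%. The p-values measure only the spread between cultures, in which this fit includes the difference between the Xist and Y-linked arrays. With that difference as a block, H2-K1 and Oasl1 passed an unadjusted limma p of 0.05, both lower, beside 5.3% of all genes. The SE then fell from 0.47 to 0.17 for B2m and rose from 0.29 to 0.30 for Ifit1. With 2 arrays a genotype the intervals of the fit without a block were wide, as the plot of differences shows.

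**Figure D2:**
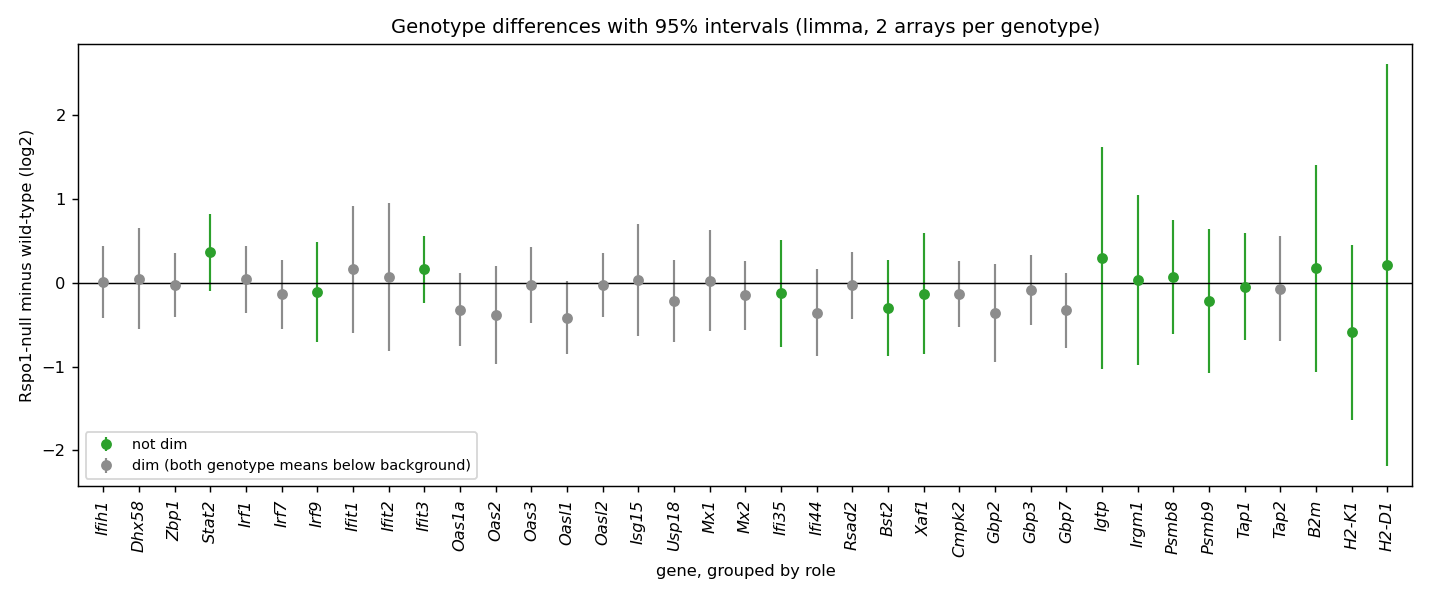
Log2 difference, Rspo1-null minus wild-type (vertical axis), of each of the 37 genes (horizontal axis, grouped by role), with points for the limma estimate and bars for its 95% interval over 2 arrays a genotype. Every interval includes 0, and the interval of H2-D1 is the widest, from -2.19 to 2.61.

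The chains of the class I molecule were above background in every array, and the genotypes overlapped for all 3 of them. B2m, which encodes the light chain that all class I heavy chains need, had values of 10.97 and 12.11 in wild-type 1 and 2 and of 11.35 and 12.09 in Rspo1-null 2 and 1. The genotypes overlapped, with a log2 difference of 0.17 (SE 0.47, 95% interval -1.06 to 1.41, limma unadjusted p = 0.727). Both Xist arrays were above both Y-linked arrays, by 0.94 on average. In RNA of whole cultures, more cells that express a gene and more RNA per cell cannot be told apart.

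H2-D1 encodes the H2-D heavy chain. Its values were 7.79 and 10.38 in wild-type 1 and 2 and 9.74 and 8.86 in Rspo1-null 1 and 2. The range of 2.60 between the arrays, 6.05-fold on the linear scale, was the widest of the 37 genes and lay within the wild-type genotype. The genotype difference was 0.21 (SE 0.91, limma unadjusted p = 0.828). Between the Xist arrays, Rspo1-null was lower by 0.65, and between the Y-linked arrays it was higher by 1.07. Its sign depended on the array left out. The difference was 1.51 without wild-type 2 (limma unadjusted p = 0.0366, with 7.13% of all genes past 0.05 in that fit), 0.65 without Rspo1-null 2, -0.23 without Rspo1-null 1 and -1.09 without wild-type 1 (limma unadjusted p = 0.0844). In such a fit the spread comes from the genotype that keeps both arrays, and the lone array is assumed to vary like them.

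H2-K1 encodes the H2-K heavy chain. It had values of 6.67 and 7.59 in wild-type 1 and 2 and of 6.87 and 6.21 in Rspo1-null 1 and 2. Rspo1-null 1 lay between the wild-type arrays and Rspo1-null 2 below both, and the log2 difference of -0.59 (SE 0.40, 95% interval -1.64 to 0.46, limma unadjusted p = 0.202) was the largest of the 37 in size. It ran from -1.05 without wild-type 1 and -0.93 without Rspo1-null 1 to -0.26 without Rspo1-null 2 and -0.13 without wild-type 2 (limma unadjusted p = 0.734). Within the Xist arrays it was -0.72 and within the Y-linked arrays -0.47. With the kind of sex-linked transcript as a block, the unadjusted p of limma was 0.0184 and the adjusted p 0.818, beside 5.3% of all genes past an unadjusted p of 0.05 in that fit. Class I heavy chains share long stretches of sequence with each other and with the H2-Q and H2-T genes, so probes may read more than 1 of them and their values are uncertain in this respect.

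The promoters of both heavy-chain genes are shown because they carry the elements through which interferon and NF-kappaB are known to act on class I genes, and because both genes vary between these arrays. They are RefSeq windows of the GRCm38.p6 assembly, from 250 bases before to 50 after the start used for the window, written 5′ to 3′ on the gene's strand. The window of H2-K1 is chr17:34000298-34000597 (minus strand; RefSeq lists 2 windows for this gene and 1 is shown), and that of H2-D1 is chr17:35262844-35263143 (plus strand). Capitals mark the kappaB motif GGGATTCCC (GGGAATCCC on the other strand) and the shorter interferon motif TTTCNNTTC, which is GAANNGAAA on the other strand.
H2-K1: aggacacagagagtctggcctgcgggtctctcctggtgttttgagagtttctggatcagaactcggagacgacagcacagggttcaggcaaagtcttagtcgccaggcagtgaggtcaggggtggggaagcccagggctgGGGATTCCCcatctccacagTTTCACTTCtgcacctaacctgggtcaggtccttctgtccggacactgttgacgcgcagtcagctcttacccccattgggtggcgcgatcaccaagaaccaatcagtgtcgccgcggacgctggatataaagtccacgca
H2-D1: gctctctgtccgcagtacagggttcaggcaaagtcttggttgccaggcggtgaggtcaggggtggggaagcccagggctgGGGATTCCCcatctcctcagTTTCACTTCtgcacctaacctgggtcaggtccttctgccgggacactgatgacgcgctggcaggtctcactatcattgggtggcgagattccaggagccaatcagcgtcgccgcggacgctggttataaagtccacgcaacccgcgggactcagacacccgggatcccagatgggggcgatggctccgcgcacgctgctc
In both windows the 9 bases of the kappaB motif come first and the interferon motif begins 20 bases after its start. In H2-K1 they run from -110 to -102 and from -90 to -82, counted from the start used for the window. In the other H2-K1 window they run from -124 to -116 and from -104 to -96. In H2-D1 they run from -170 to -162 and from -150 to -142. The H2-K1 gene record on its minus strand extends to 34000619, beyond the window shown. The positions in both genes are therefore not comparable distances from the start of the gene. Aligned on these motifs without gaps, 176 of 240 bases (73.3%) were identical. Searched on both strands, the kappaB letters occurred in 112 of 27025 gene promoters of this length (0.414%). Of the 37 genes, 30 had a promoter window, and 3 of these, H2-K1, H2-D1 and Irf1, held the kappaB letters, while 12 (40.0%) held GAANNGAAA, which 8.68% of all promoters hold.

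The promoter of B2m has the full ISRE letters, 2 copies of GAAA (TTTC on the other strand) with 2 bases of any kind between them, and neither of the other motifs. Its window is chr2:122147437-122147736 (plus strand), and capitals mark the match, from -139 to -130.
B2m: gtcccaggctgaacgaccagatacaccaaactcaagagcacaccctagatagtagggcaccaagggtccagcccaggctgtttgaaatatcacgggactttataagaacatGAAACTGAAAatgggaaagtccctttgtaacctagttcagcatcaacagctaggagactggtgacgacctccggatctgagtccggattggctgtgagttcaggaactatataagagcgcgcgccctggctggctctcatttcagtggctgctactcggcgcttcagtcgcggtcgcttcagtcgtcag
This motif was found in 15 of the 30 windows (50.0%), beside 3.99% of all promoters. B2m, Bst2, Ifit3, Igtp, Irgm1 and Stat2 are the ones among them that were not dim. Gbp2, Gbp3, Gbp7, Ifih1, Ifit1, Isg15, Oas1a, Oas3 and Rsad2 hold it as well and were dim, so that the letters were present in promoters of both kinds. A match shows the letters only and not a bound site.

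The genes of peptide supply were in part higher in the Xist arrays as well. Psmb9 and Psmb8 encode catalytic subunits that replace those of the constitutive proteasome when cells see interferon, and Tap1 and Tap2 encode both chains of the peptide transporter. Tap1 had values of 5.98 and 6.51 in wild-type 1 and 2 and of 6.33 and 6.06 in Rspo1-null 1 and 2, with a genotype difference of -0.046 (SE 0.24, limma unadjusted p = 0.856). Psmb9 was at 4.79 and 5.57 in wild-type 1 and 2 and at 5.19 and 4.75 in Rspo1-null 1 and 2, a difference of -0.21 (SE 0.33, limma unadjusted p = 0.545). Psmb8 was at 4.45 and 4.87 in wild-type and at 4.98 and 4.48 in Rspo1-null, in the same order of cultures, and exceeded the background level only in the Xist arrays. For these 3 genes both Xist arrays were above both Y-linked arrays, by 0.40 for Tap1, 0.61 for Psmb9 and 0.46 for Psmb8. Tap2, which was dim, ran the other way, at 4.06 and 3.99 in the Xist arrays and at 4.47 and 4.40 in the Y-linked arrays.

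Muscle genes also differed between the Xist and Y-linked arrays. Myf5 and Pax7, which mark undifferentiated myoblasts and satellite cells, were at 8.25 and 7.85 in wild-type 2 and at 8.21 and 8.17 in Rspo1-null 1, above their 5.91 and 6.38 in wild-type 1 and 6.81 and 7.10 in Rspo1-null 2. Myog, a transcription factor of differentiating myocytes, was lower in the Xist arrays (9.56 and 9.96) than in the Y-linked arrays (11.07 and 11.70), and Ckm, the creatine kinase of mature muscle, was at 5.55 and 6.06 against 8.92 and 8.16. Of the 8 muscle markers, 2 had both Xist arrays above both Y-linked arrays and 6 had them below. The shares were 27.2% and 20.7% over all genes that were not dim. Among the 6 were Myod1 and Cdh15, which encodes M-cadherin, named by the paper as a muscle progenitor marker. Cdh15 was at 8.01 and 7.93 in the Xist arrays and at 8.22 and 8.36 in the Y-linked arrays. The progenitor markers thus did not all run the same way. Of the 9 leukocyte markers, 0 had both Xist arrays above both Y-linked arrays and 2 had them below. The shares were 19.9% and 22.1% over all genes. Of these 9 markers 7 were dim, and levels below background carry little information. The median of the 9 was 3.99 in wild-type 1 and 2 and 3.67 and 4.16 in Rspo1-null 1 and 2. The sex of the animals, the stage of differentiation and the culture cannot be told apart in 4 arrays, and their part in the class I values was not tested.

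**Figure D3:**
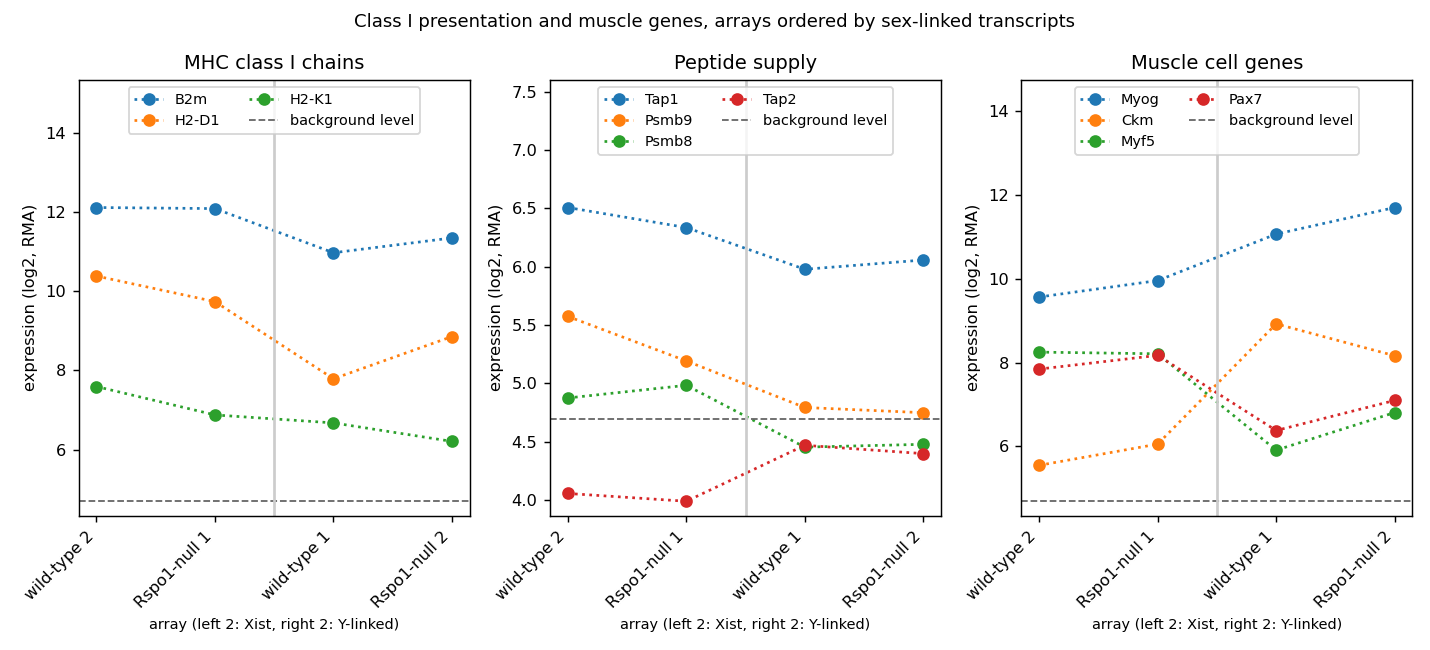
Log2 expression (RMA, vertical axes) in the 4 arrays (horizontal axes, Xist arrays left and Y-linked arrays right of the gray line) of the MHC class I chains, of the peptide supply genes and of 4 muscle genes; each dot is 1 array, dotted lines join the arrays of a gene, and the dashed line is the background level. B2m, H2-D1, H2-K1, Tap1, Psmb9 and Psmb8 are higher in both Xist arrays, as are Myf5 and Pax7, whereas Tap2, Myog and Ckm are lower there.

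Across the 14 genes that were not dim, 9 had both Xist arrays above both Y-linked arrays, beside 27.2% of all genes that were not dim, and 2 had them below, beside 20.7%. The median difference between the Xist and Y-linked arrays over the 14 genes was 0.41, beside 0.035 over all genes that were not dim. Over all 37 genes the counts were 12 above and 5 below, beside 19.9% and 22.1%. The list was chosen with earlier results of these arrays known, and these counts describe 4 cultures. Irf9, Ifi35 and Irgm1 were the other genes of the 9, and Igtp and Xaf1 were those below. Within the pairs of arrays with the same sex-linked transcripts, the sign of Rspo1-null minus wild-type differed between the pairs for 19 of the 37 genes, beside 46.2% of all genes.

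**Figure D4:**
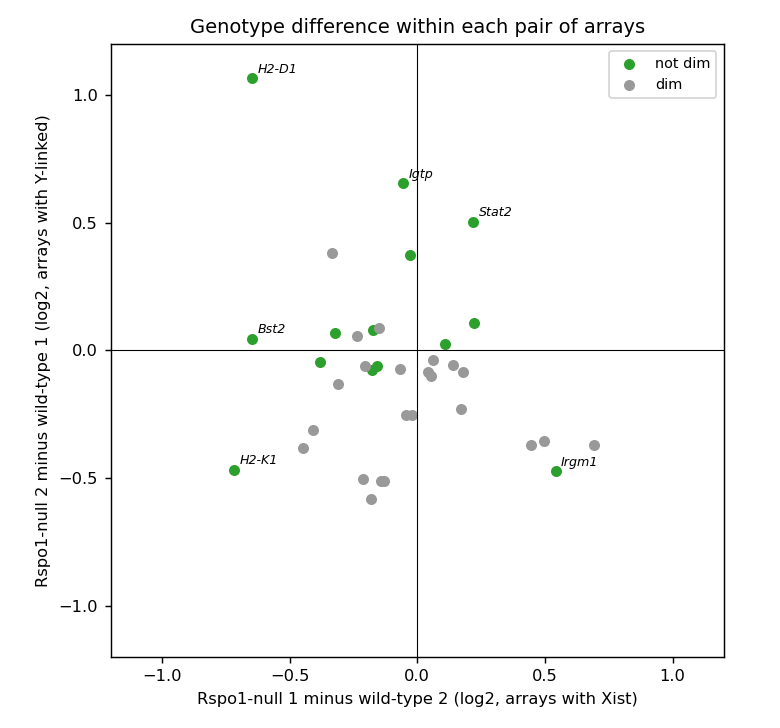
Rspo1-null 1 minus wild-type 2 (horizontal axis, Xist arrays) against Rspo1-null 2 minus wild-type 1 (vertical axis, Y-linked arrays), both as log2 differences, with 1 point for each of the 37 genes; green points are not dim, gray points are dim, and genes that were not dim and differed by over 0.4 in a pair are named. H2-D1 lies at -0.65 and 1.07, with opposite signs, and H2-K1 at -0.72 and -0.47, lower in both pairs.

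Sensors of viral RNA and DNA were at the background level. Ifih1 (MDA5) and Dhx58 (LGP2) bind double-stranded RNA, and Zbp1 binds nucleic acids in the Z form. Their values ran from 2.86 to 4.63, and their differences from -0.023 to 0.048. In the wider pathway, 7 of 14 further genes of nucleic acid sensing were dim, and the adaptor Mavs, the mitochondrial partner of Ifih1, was at 6.79 and 6.74 in wild-type 1 and 2 and at 7.26 and 6.98 in Rspo1-null 1 and 2 (difference 0.35, SE 0.17, limma unadjusted p = 0.0961).

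Of the transcription factors, Stat2 and Irf9 were not dim, and Irf1 and Irf7 were. Stat2 was at 4.56 and 4.88 in wild-type 1 and 2 and at 5.10 and 5.07 in Rspo1-null 1 and 2, with both Rspo1-null arrays above both wild-type arrays. Its difference of 0.36 (SE 0.17, 95% interval -0.097 to 0.82, limma unadjusted p = 0.0966) was the largest above 0 among the 37 genes. Irf9, the DNA-binding partner of STAT2, was at 4.91 and 5.34 in wild-type 1 and 2 and at 5.19 and 4.85 in Rspo1-null 1 and 2, a difference of -0.11 (SE 0.23, limma unadjusted p = 0.658), and its genotypes overlapped. Irf1 and Irf7, which amplify the response, stayed between 4.08 and 4.38.

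The upstream signaling genes were measured above background. Ifnar1 and Ifnar2, the chains of the type I interferon receptor, were at 7.01 to 7.63 and at 8.32 to 8.78 over the 4 arrays, and Ifngr1 and Ifngr2, those of the interferon-gamma receptor, at 6.57 to 6.78 and at 7.38 to 8.33. The kinase Jak2 was at 7.14 and 7.84 in the Xist arrays and at 6.20 and 5.94 in the Y-linked arrays. Stat3 ran the other way, at 6.72 in both Xist arrays and at 7.46 and 7.65 in the Y-linked arrays. Of 20 receptor, kinase and transcription genes, 5 were dim and 0 passed an unadjusted limma p of 0.05 in either direction. Both Xist arrays were above both Y-linked arrays for 8 of the 20 and below them for 4, beside 19.9% and 22.1% of all genes. Of 17 interferon genes found, 9 were dim, among them Ifnb1 (2.66 to 2.94) and Ifng (2.94 to 3.33). The other 8 were not dim, among them Ifnl2 (6.80 to 7.18), Ifnl3 (5.33 to 5.88) and Ifnz. Ifnz ran from 3.27 in wild-type 1 to 5.87 in wild-type 2. The Ifna genes are near-identical copies and their single values are uncertain.

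The interferon-stimulated effectors were mostly dim, with Ifit3 an exception. IFIT proteins bind foreign RNA ends and block their translation. Ifit3 was at 6.57 and 6.62 in wild-type 1 and 2 and at 6.85 and 6.67 in Rspo1-null 1 and 2, and although the genotypes did not overlap, the difference was 0.16 (SE 0.15, limma unadjusted p = 0.333). Its close copy Ifit3b may share its probes. Ifit1 was dim, at 4.23 and 3.63 in wild-type and at 4.32 and 3.86 in Rspo1-null, and Ifit2 reached 4.81 in Rspo1-null 1 alone, above the background level, with 3.89 to 4.32 in the other arrays. For Ifit1 and Ifit2, Rspo1-null 1 was higher than wild-type 2 by 0.69 and 0.50 while Rspo1-null 2 was below wild-type 1, with differences of -0.37 and -0.36.

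Isg15, a ubiquitin-like protein that is among the genes most strongly induced by interferon, was at 3.29 and 3.07 in wild-type 1 and 2 and at 3.52 and 2.91 in Rspo1-null 1 and 2, below background in every array. Usp18, the enzyme that removes ISG15 from proteins, was dim as well, at 3.62 to 4.09. The promoter of Isg15 is shown because its ISRE letters are repeated while the gene was not measured above background. Its window is chr4:156200769-156201068 (minus strand), and capitals mark 3 overlapping ISRE matches from -78 to -57 and a TTTCNNTTC match from -128 to -120.
Isg15: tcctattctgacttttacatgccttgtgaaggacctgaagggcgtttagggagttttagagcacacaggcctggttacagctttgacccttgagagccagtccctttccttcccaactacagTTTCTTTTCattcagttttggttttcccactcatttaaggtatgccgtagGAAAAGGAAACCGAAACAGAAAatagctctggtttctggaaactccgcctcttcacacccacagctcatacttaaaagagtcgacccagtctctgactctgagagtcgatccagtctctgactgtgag

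The OAS genes encode enzymes that make the second messenger of RNase L, and OASL proteins are relatives of them. All 5 were dim. Each had a lower mean in Rspo1-null, but with median centering or cyclic loess 2 of the 5, Oas3 and Oasl2, turned higher. Oasl1 was at 4.51 and 4.35 in wild-type 1 and 2 and at 3.91 and 4.13 in Rspo1-null 1 and 2. Its difference of -0.42 (SE 0.17, limma unadjusted p = 0.0586) had the lowest p of the 37 genes. With the sex-linked transcripts as a block, the unadjusted p of limma was 0.0443 and the adjusted p 0.818. In that fit 5.3% of all genes passed an unadjusted p of 0.05. Oas2 was at 4.05 and 3.54 in wild-type and at 3.36 and 3.47 in Rspo1-null (difference -0.38, SE 0.22, limma unadjusted p = 0.149), and without wild-type 2 it was -0.64 (limma unadjusted p = 0.0329, beside the same 7.13% of all genes) and without wild-type 1 -0.13. Levels below the background level carry little information on expression. Oas1a and Oas1g are close copies and may share probes.

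Mx1 and Mx2, dynamin-like GTPases that trap viral particles, were dim, at 2.15 to 2.66 and at 3.34 to 3.60. The other antiviral effectors were split, with Bst2, Ifi35 and Xaf1 above background in all 4 arrays and Ifi44, Rsad2 and Cmpk2 in none. Bst2 (tetherin, which holds budding virus at the membrane) was at 5.72 and 5.98 in wild-type 1 and 2 and at 5.34 and 5.77 in Rspo1-null 1 and 2, a difference of -0.30 (SE 0.22, limma unadjusted p = 0.228). Its lowest value was that of Rspo1-null 1, and Rspo1-null 2 lay between the wild-type arrays. Ifi35, a partner of NMI, was at 5.87 and 6.34 in wild-type and at 6.16 and 5.79 in Rspo1-null. Xaf1, which binds the apoptosis inhibitor XIAP, was at 5.49 and 5.22 in wild-type and at 4.90 and 5.56 in Rspo1-null, so that the Y-linked arrays were the higher ones here.

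The interferon-induced GTPases differed in which arrays were high. Igtp and Irgm1 encode immunity-related GTPases that act on the vacuoles of intracellular pathogens. Igtp was at 4.95 and 4.33 in wild-type 1 and 2 and at 4.28 and 5.61 in Rspo1-null 1 and 2, above background only in the Y-linked arrays. Irgm1 was at 4.92 and 5.00 in wild-type and at 5.55 and 4.45 in Rspo1-null, lowest in a Y-linked array. Their ranges over the arrays were 1.33 and 1.09, and their genotype differences were 0.30 (SE 0.50, limma unadjusted p = 0.579) and 0.035 (SE 0.39, limma unadjusted p = 0.932). The guanylate-binding proteins Gbp2, Gbp3 and Gbp7 were dim in all arrays, at 2.33 to 3.24.

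Beyond the list, 137 further genes of the interferon and presentation pathways were found, of which 70 were dim. At an unadjusted limma p under 0.05, 0 of them were higher and 3 lower in Rspo1-null, beside the 1.19% and 1.95% of all genes given above, and every adjusted p was 1. The balance turned to 5 higher and 1 lower with the methods' test, and it was 1 higher and 2 lower with median centering. Herc6, the ligase that attaches ISG15 in mice, was at 4.69 and 4.71 in wild-type 1 and 2 and at 4.11 and 4.03 in Rspo1-null 1 and 2, close to background (difference -0.63, SE 0.14, limma unadjusted p = 0.00797). Both Rspo1-null arrays were below them. H2-T22, a nonclassical class I chain, was at 4.71 and 5.30 in wild-type and at 4.33 and 4.28 in Rspo1-null (difference -0.70, SE 0.24, limma unadjusted p = 0.0359). Gbp5 was dim, at 3.78 and 3.38 against 3.07 and 3.06 (difference -0.52, SE 0.19, limma unadjusted p = 0.0456). Herc6 kept its call with both of these settings, while H2-T22 lost it with the methods' test and Gbp5 lost it with both.

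Of 23 other genes of class I presentation, 10 were dim. Both Xist arrays were above both Y-linked arrays for 6 of the 23 and below them for 2, beside the 19.9% and 22.1% of all genes given above, and the median difference between the Xist and Y-linked arrays was 0.20. Nlrc5, the transactivator of class I genes, was dim at 3.41 to 3.89 in all arrays. Both Rspo1-null arrays were below both wild-type arrays for it, as for 19.0% of all genes, and levels below background carry little information. The constitutive proteasome subunits Psmb6 and Psmb7, whose places Psmb9 and others take, were at 11.10 to 11.24 and at 10.26 to 10.74. Of 7 MHC class II genes, which professional antigen-presenting cells use, 6 were dim. Among the 54 other interferon-stimulated genes, 33 were dim. Both Xist arrays were above both Y-linked arrays for 16 of the 54 and below them for 7, beside the same shares of all genes. Ifitm3, a membrane protein that blocks viral entry, was above background. It was at 11.06 and 11.16 in the Xist arrays and at 10.33 and 10.66 in the Y-linked arrays. Tor3a ran the other way, at 6.56 and 6.35 in the Xist arrays and at 7.43 and 7.22 in the Y-linked arrays. Ifi204 stood out in 1 array, at 6.27 in wild-type 2 and at 4.47, 4.23 and 4.19 in wild-type 1, Rspo1-null 1 and Rspo1-null 2.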

How the data were processed

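RNA of 4 myocyte cultures, 2 for each genotype, was hybridized to 1 array each. The authors deposited log2 values, 1 for each gene and array, normalized by RMA as the submitters' processing notes state, which also name Partek; versions are not given in the sources used here. Groups and replicate numbers came from the samples' labels. The 37 genes, the lists and the tests were chosen with earlier results of these data known.

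Of 24973 rows, 24015 were named by the platform's gene table and 559 more, Ifi44 among them, by gene number through RefSeq (GRCm38.p6); 399 stayed unnamed. For 4 symbols with several rows, none of them on the list, the highest row was kept. Rspo1-null was compared with wild-type by limma 3.58.1 (R 4.3.3) with no block, p-values were adjusted over 24570 genes by Benjamini-Hochberg, and the fit was tested on simulated data. Genes described with values in every array are the 10 with the widest range among those not dim, those not dim whose genotypes do not overlap, the highest member of each role, and up to 4 pathway genes a list past an unadjusted p of 0.05. Dim genes, Psmb8 and other pathway genes given with values were chosen after their values were seen. The alternatives were an intensity trend, replicate and sex-linked blocks, median centering, cyclic loess, leaving out dim genes or 1 array, the mean of a symbol's rows, and the methods' test. Array data give no read depth, and the number of arrays limits the precision.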

Additional observations from a re-analysis of the deposited data

Results flagged for a closer look

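H2-D1, the H2-D heavy chain, differed between the genotypes in opposite directions within the 2 pairs of arrays that share their sex-linked transcripts. Rspo1-null minus wild-type was -0.65 on the log2 scale between the Xist arrays and 1.07 between the Y-linked arrays. The difference between the pairs was not tested, since each pair holds 1 array for each genotype.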

How the results depend on the processing

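No setting gave a member or pathway gene an adjusted p under 0.05. Counts at an unadjusted p under 0.05 were 411 over all genes and 1 over the pathway genes with the replicate block, 1303 and 8 with the sex-linked block, 1164 and 6 with the methods' test, and 553 to 1752 and 4 to 12 when 1 array was left out, against 772 and 3. Without dim genes 285 were called, and cyclic loess left 1 pathway gene. Of the 37 members, the sex-linked block called 2 lower, H2-K1 and Oasl1, and leaving out 1 array called 0 to 1 higher and 0 to 1 lower, H2-D1 and Oas2, both without wild-type replicate 2; all other settings called 0. Herc6 lost its call only without Rspo1-null replicate 2. H2-D1 ran from -1.09 without wild-type replicate 1 to 1.51 without wild-type replicate 2. The members' median difference ran from -0.15 without Rspo1-null replicate 1 to 0.017 with cyclic loess. The difference of Rspo1, -0.46, lost its unadjusted call with an intensity trend (limma, 0.0569) and with the replicate block (0.0664). It ran from -0.53 to -0.40 when 1 array was left out, with no call. Same-numbered arrays deviated from their genotype means with a correlation of -0.36 over genes, so the numbers were not taken as pairs; the crossed pairing is the sex-linked block and gave the counts above. The cause of these changes was not tested.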
